A study of Neurospora crassa with 18 samples.

Results

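Transcripts of 4 heat shock chaperone genes, *hsp30* (*NCU09364*), *hsp70-1* (*NCU09602*), *hsp80* (*NCU04142*) and *hsp60* (*NCU01589*), were followed in the Neurospora strains used to study H3K36me, the methylation of lysine 36 of histone H3. The genes were chosen by name and locus tag, not by their values, although earlier results of these data were known. They are 4 of the 9730 genes counted. The RNA libraries were made from poly-A+ RNA of germinated conidia, 2 biological replicates for each of 4 strains. N623 is *mat A* and *his-3*, and serves as wildtype (WT). N2930, also a WT strain of the study, is *mat A* and *his-3* and has *bar* in place of *mus-52*, which acts in the joining of broken DNA ends. The *ash1*(Y888F) strain N4878 is *mat A* and *his-3* and carries *ash1* with the Y888F mutation, a 3xFLAG tag and the *hph* marker. The Δ*set-2* strain N5761 is *mat a*, carries no *his-3* mutation in the strain list, and has *set-2* replaced by *hph*. Each genotype is thus 1 strain, and in Δ*set-2* mating type and *his-3* cannot be told apart from the loss of SET-2.

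Heat shock proteins are chaperones that bind unfolded proteins and help them reach or regain their structure. Their genes are induced when cells are heated or otherwise stressed, through heat shock transcription factors, and most are also transcribed during normal growth. HSP30 is a small heat shock protein of the alpha-crystallin family. HSP70-1 is a cytosolic member of the Hsp70 family and HSP80 is the Neurospora Hsp90, both of which use ATP to act on client proteins. HSP60 is the chaperonin of the mitochondrial matrix, where imported proteins fold inside its ring. ASH1 and SET-2 are the H3K36 methyltransferases of Neurospora, of which SET-2 travels with RNA polymerase II and marks active genes.

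The libraries held 6547197 to 8837798 counts in genes (median 7531836). The deleted genes had fewer counts in their own strains, to unlike degrees. *set-2* had 46 and 50 counts in Δ*set-2* against 113 to 210 in the other 6 libraries, so reads were still counted over it. Its level was only 3.06-fold lower than in N623 and 3.69-fold lower than in N2930. *mus-52* had 2 counts in each N2930 library against 255 to 483 elsewhere. *ash1*(Y888F) is a point mutation and was not checked. The library names carry dates without saying what they date. All N623 and N2930 libraries share one date, *ash1*(Y888F) replicate 1 has an earlier one, and *ash1*(Y888F) replicate 2 shares a later one with both Δ*set-2* libraries. The comparison of the WT strains thus lies within one date, but for either mutant against WT the date and the genotype cannot be told apart. The *ash1*(Y888F) replicates were less alike (Spearman's rho 0.959 across genes) than those of the other strains (0.985 in each). Of 7 conidial genes, taken as markers of the labelled material, none was at 0 in both libraries of a strain, although *con-13* had at most 4 counts. Their summed level was 133 to 211 CPM in N623, 263 to 275 in N2930, 293 to 348 in *ash1*(Y888F) and 1017 to 1058 in Δ*set-2*. The sum mixes genes that moved in opposite ways. *eas* had 48.5 and 59.7 CPM in N623, 169 and 185 in N2930, but 11.7 and 11.0 in *ash1*(Y888F). *con-6*, *con-8*, *con-10* and *cat-1* were higher in both *ash1*(Y888F) libraries than in any WT library. *con-6*, *con-8* and *fl* were lower in both N2930 libraries than in either N623 library. CPM, here and below, are counts per 1000000 counts in genes after TMM scaling over the 8 libraries.

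Before any comparison of strains, the chaperone genes differ from one another in level. Levels between genes are given per kilobase (kb) of gene span, introns and untranslated regions included. *hsp70-1* (linkage group (LG) II, 79724 to 82693, minus strand, in the coordinates of assembly NC12) had 780 to 1181 CPM per kb over the 8 libraries, above at least 98.96% of genes in every library. *hsp80* (LG V, 4974497 to 4977515, plus strand) had 347 to 595 CPM per kb. The level of *hsp60* (LG II, 3012906 to 3015387, plus strand) was 31.7 to 231 CPM per kb. *hsp30* (LG I, 3586694 to 3588207, plus strand) had 12.1 to 29.3 CPM per kb, between the 55.8 and the 76.5 percentile of genes. The order *hsp70-1*, *hsp80*, *hsp60*, *hsp30* held in each library, and the ranges of neighbours in this order did not overlap. Of all counts in genes, 0.385 to 0.538% fell in the chaperone genes and 0.257 to 0.335% in *hsp70-1* alone.

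The genes also differed in how far their level varied across libraries. The highest over the lowest CPM was 7.31 for *hsp60*, 2.42 for *hsp30*, 1.71 for *hsp80* and 1.51 for *hsp70-1*. The median of the same ratio was 2.27 over the 6472 genes with an average log2 CPM of at least 3, and 91.2% of them varied less than *hsp60*, but only 12.2% less than *hsp70-1*. These ratios mix strains and replicates, and are a description.

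**Figure D1:**
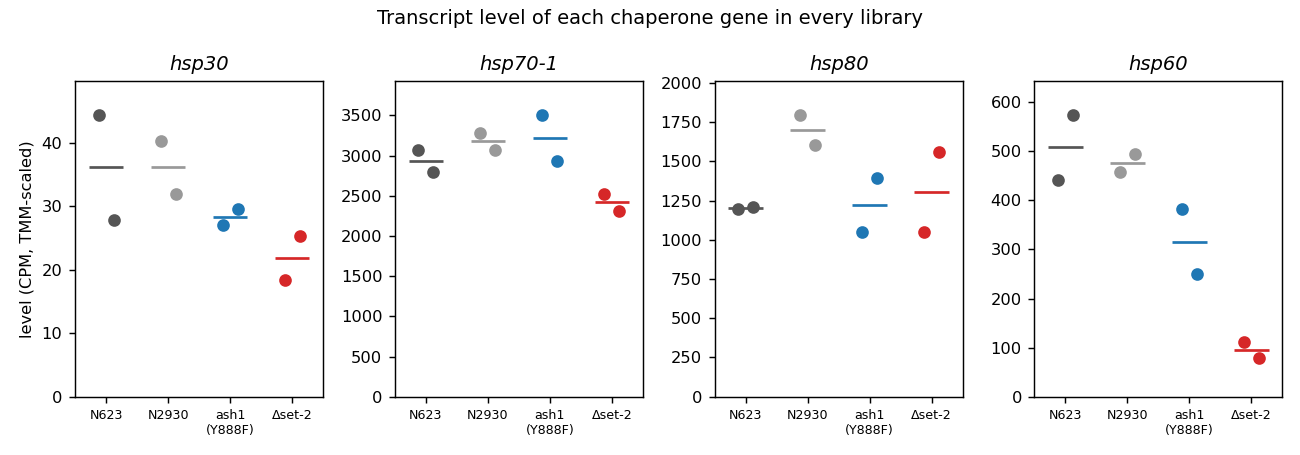
Level of each chaperone gene (vertical axis, CPM after TMM scaling, starting at 0) in the 4 strains, with 1 point for each library (replicate 1 left, replicate 2 right) and a bar at the strain mean. The *hsp60* points of Δ*set-2* (111 and 78.6 CPM) lie far below all others, while those of *hsp70-1* and *hsp80* stay within a 1.51-fold and a 1.71-fold range.

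*hsp60*, the mitochondrial chaperonin gene, was lower in Δ*set-2* than in either WT strain. It had 3080 and 4365 counts in N623 (442 and 574 CPM), 3599 and 4330 in N2930 (457 and 494 CPM), 2475 and 1859 in *ash1*(Y888F) (382 and 249 CPM), but 875 and 638 in Δ*set-2* (111 and 78.6 CPM). Both Δ*set-2* libraries thus lay below all other libraries, and both *ash1*(Y888F) libraries lay between Δ*set-2* and WT. With 2 libraries per strain such a separation of libraries, here and below, is only a description, and its share among all genes was not counted. In Δ*set-2* the gene fell 5.28-fold against N623 (log2 fold change -2.40, standard error 0.26, adjusted p = 0.00324, edgeR's quasi-likelihood test with Benjamini-Hochberg adjustment over all genes, as for all adjusted p-values here). A gene is said to be called, to rise or to fall where this p was under 0.1. Against N2930 it fell 4.96-fold (log2 -2.31, standard error 0.25, adjusted p = 0.00243). Only 111 of 7741 genes tested against N623, and 106 of 7768 against N2930, had a lower fold change. With each library left out in turn the log2 fold change ran from -2.69 to -2.20 against N623 and from -2.61 to -2.13 against N2930, and the adjusted p stayed at or below 0.0349. The same strain had the high summed level of conidial genes given above, and 5 of the 6 conidial genes tested were called higher in Δ*set-2* than in N623, as were 5 of 6 against N2930, where 21.7% and 27.2% of all genes were. The part of these genes, or of the library date, in the level of *hsp60* was not tested. In bulk RNA fewer cells of a kind and less RNA per cell cannot be told apart.

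In *ash1*(Y888F) the difference of *hsp60* did not pass the test against either WT strain. The log2 fold change was -0.68 against N623 (95% interval -1.51 to 0.15, adjusted p = 0.297) and -0.60 against N2930 (95% interval -1.41 to 0.21, adjusted p = 0.301). The size of the difference depended on the library. Without *ash1*(Y888F) replicate 1 the log2 fold change was -1.03 against N623 and -0.95 against N2930, and without replicate 2 it was -0.42 and -0.32. These fits have 1 *ash1*(Y888F) library and take their spread from the WT libraries alone, so no call is read from them. Compared directly with Δ*set-2*, the *ash1*(Y888F) strain had 3.27-fold more *hsp60* (log2 1.71, standard error 0.33, adjusted p = 0.0228). Within the date that *ash1*(Y888F) replicate 2 shares with Δ*set-2* the log2 difference was 1.38 (adjusted p = 0.0217), a fit with 1 *ash1*(Y888F) library in which the spread comes from the Δ*set-2* libraries alone. The part of the date in this difference was not tested. Without Δ*set-2* replicate 2 the direct call was lost (log2 1.49, adjusted p = 0.154).

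*hsp30*, the small heat shock protein gene, was the least abundant of the genes and passed the test for lower levels in Δ*set-2* with only 1 of the 2 WT strains as control. It had 309 and 212 counts in N623 (44.4 and 27.9 CPM), 317 and 280 in N2930 (40.3 and 32.0 CPM), 175 and 220 in *ash1*(Y888F) (27.0 and 29.5 CPM), but 145 and 205 in Δ*set-2* (18.3 and 25.2 CPM). The Δ*set-2* libraries were the lowest, but the N623 replicates were further apart than the nearest N623 and Δ*set-2* libraries. The 145 counts of the lowest library have an exact Poisson 95% interval of 122 to 171, and the 309 of N623 replicate 1 one of 276 to 345, intervals that cover counting error only. Against N2930 the gene fell 1.62-fold in Δ*set-2* (log2 -0.70, standard error 0.24, adjusted p = 0.0597). Nearly the same log2 fold change against N623, -0.70 (standard error 0.30), missed the threshold (adjusted p = 0.125). The call against N2930 was lost without N2930 replicate 1 or 2 (log2 -0.57 and -0.84, adjusted p = 0.205 and 0.120) and without Δ*set-2* replicate 1 (log2 -0.53, adjusted p = 0.162). In *ash1*(Y888F) the log2 fold change of *hsp30* was -0.35 against N623 (95% interval -1.10 to 0.41, adjusted p = 0.563) and -0.36 against N2930 (95% interval -0.98 to 0.26, adjusted p = 0.409). Between the mutants the test was not passed (log2 0.35 for *ash1*(Y888F) against Δ*set-2*, 95% interval -0.35 to 1.06, adjusted p = 0.437). The interval reaches 1.06, so equal levels were not shown.

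*hsp70-1*, the cytosolic Hsp70 gene, was called in none of the 6 comparisons. It had 21372 and 21240 counts in N623 (3068 and 2793 CPM), 25847 and 26931 in N2930 (3285 and 3075 CPM), 22734 and 21906 in *ash1*(Y888F) (3507 and 2936 CPM), with 19947 and 18801 in Δ*set-2* (2519 and 2315 CPM). Both Δ*set-2* libraries lay below all others, by a small margin. The log2 fold change in Δ*set-2* was -0.25 against N623 (95% interval -0.98 to 0.48, adjusted p = 0.556) and -0.37 against N2930 (95% interval -1.10 to 0.36, adjusted p = 0.348). In *ash1*(Y888F) it was 0.14 against N623 (95% interval -0.93 to 1.22) and 0.01 against N2930 (95% interval -1.02 to 1.04). These intervals hold 1.5-fold changes in either direction for *ash1*(Y888F), so equal levels were not shown.

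*hsp80*, the Hsp90 gene, was likewise called in none of the 6 comparisons. It had 8351 and 9210 counts in N623 (1199 and 1211 CPM), 14133 and 14054 in N2930 (1796 and 1605 CPM), 6803 and 10385 in *ash1*(Y888F) (1050 and 1392 CPM), with 8298 and 12652 in Δ*set-2* (1048 and 1558 CPM). In both mutants 1 library was below and 1 above the level of N623, and in both the higher one was replicate 2. The N2930 libraries were the highest of all 8. The log2 fold change in *ash1*(Y888F) was 0.03 against N623 (95% interval -0.86 to 0.91) and -0.49 against N2930 (95% interval -1.40 to 0.42, adjusted p = 0.450). For Δ*set-2* it was 0.14 against N623 (95% interval -0.58 to 0.87) and -0.36 against N2930 (95% interval -1.12 to 0.41, adjusted p = 0.388). The sign in both mutants therefore depended on the control strain. N2930 had 1.42-fold more *hsp80* than N623 (log2 0.50, standard error 0.16, 95% interval 0.08 to 0.93), but this missed the threshold after adjustment (unadjusted p = 0.0283, adjusted p = 0.231). For the other genes the log2 difference between N2930 and N623 was 0.01 (*hsp30*), 0.12 (*hsp70-1*) and -0.09 (*hsp60*), with adjusted p of at least 0.743.

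**Figure D2:**
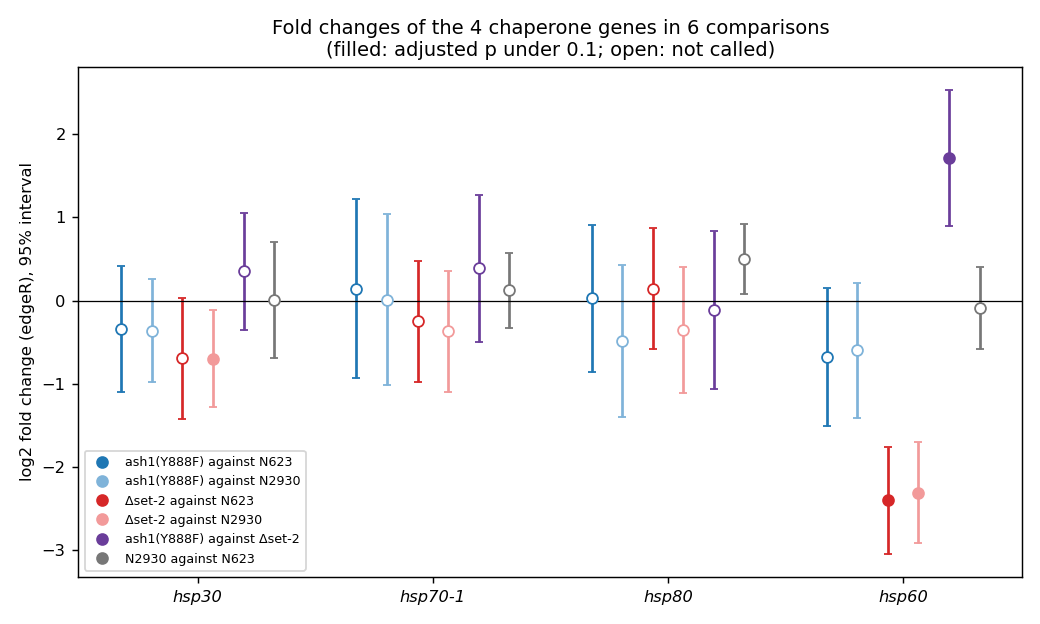
log2 fold changes of the chaperone genes (vertical axis) with 95% intervals in the 6 comparisons, 2 libraries against 2. Filled points passed an adjusted p of 0.1 in edgeR, which were *hsp60* in Δ*set-2* against N623 (-2.40) and N2930 (-2.31), *hsp60* in *ash1*(Y888F) against Δ*set-2* (1.71) and *hsp30* in Δ*set-2* against N2930 (-0.70).

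Counted over all comparisons, 4 of 24 tests of a chaperone gene passed, 3 of them for *hsp60*. These counts must be read against the share of all genes called. In *ash1*(Y888F) none of the 4 genes was called against N623, where 16.3% of 8125 genes were, and none against N2930, where 19.9% were. In either comparison no chaperone gene had an unadjusted p under 0.05, and DESeq2 called none. In Δ*set-2* 1 of 4 was called against N623, where 41.5% of 7741 genes were, and 2 of 4 against N2930, where 52.3% of 7768 were. The calls in Δ*set-2* are thus no more frequent than among all genes. Between the mutants 1 of 4 was called, *hsp60*, which was higher in *ash1*(Y888F), against 25.8% of 8270 genes (14.8% higher and 11.0% lower). Between N2930 and N623 none was called (1 with an unadjusted p under 0.05, none with DESeq2), and 1.78% of 7464 genes were. The median log2 fold change of the genes in Δ*set-2* was -0.47 against N623 and -0.54 against N2930, beside 0.01 for all genes in each. In *ash1*(Y888F) the medians were -0.16 and -0.42.

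**Figure D3:**
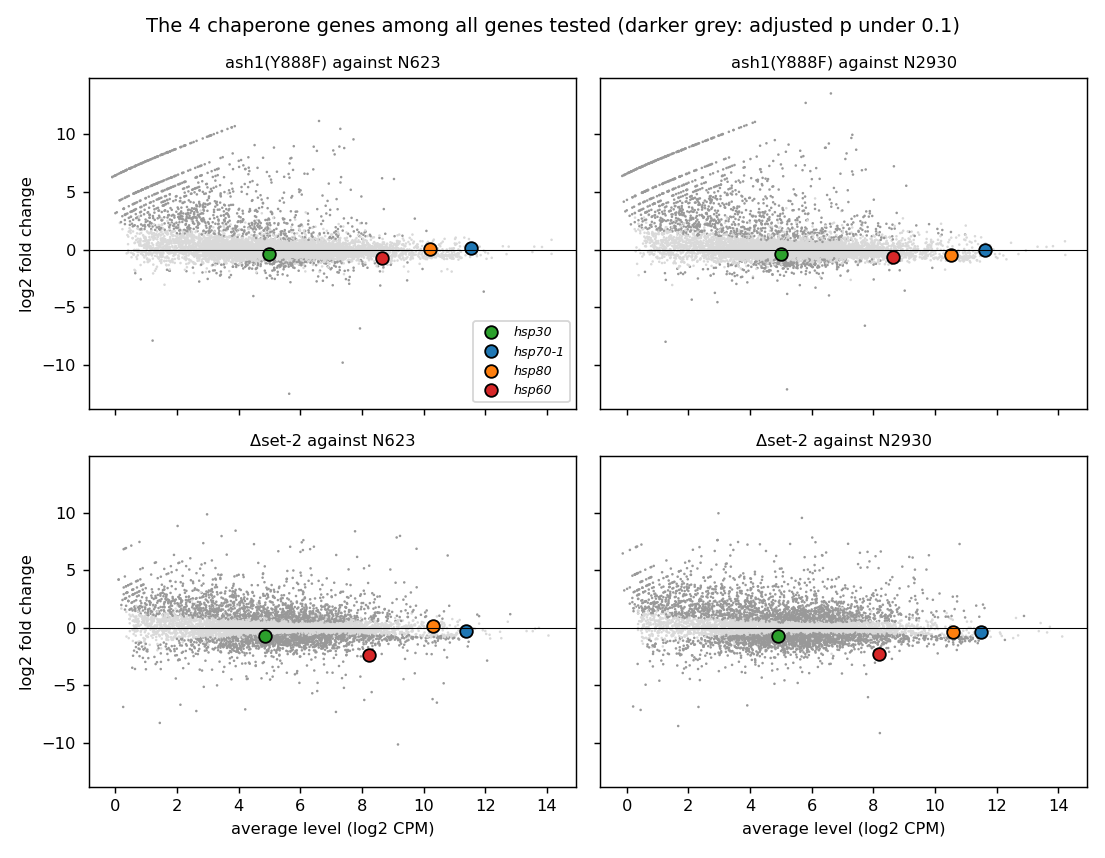
log2 fold change (vertical axis) against average level (log2 CPM) for all genes tested in each mutant against each WT strain, with the chaperone genes in color and called genes in darker grey. *hsp60* lies below most genes of its level in the Δ*set-2* panels (-2.40 and -2.31). *hsp70-1* (-0.37 to 0.14 over the panels) and *hsp80* (-0.49 to 0.14) lie among the most abundant genes.

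Ratios between chaperone transcripts within one library do not depend on library scaling. Those over *hsp60* set Δ*set-2* apart, but they use the same *hsp60* counts and are no separate support for its fall. The ratio of *hsp80* to *hsp60*, per kb, was 2.23 and 1.73 in N623, 3.23 and 2.67 in N2930, 2.26 and 4.59 in *ash1*(Y888F), but 7.80 and 16.3 in Δ*set-2*. The *ash1*(Y888F) libraries were on either side of the N2930 values, and both Δ*set-2* libraries were above all others. *hsp70-1* over *hsp60* was 5.80 and 4.07 in N623, 6.002 and 5.20 in N2930, 7.68 and 9.85 in *ash1*(Y888F), but 19.1 and 24.6 in Δ*set-2*, with no overlap between WT strains, *ash1*(Y888F) and Δ*set-2*. By contrast the ratio of *hsp70-1* to *hsp80*, both cytosolic, was 1.51 to 3.40 over all libraries, and its lowest and highest values lay in the mutants, at Δ*set-2* replicate 2 and *ash1*(Y888F) replicate 1. Across the 8 libraries the log2 CPM of *hsp60* correlated with that of *hsp70-1* at a Pearson's r of 0.80 and with that of *hsp80* at 0.08. *hsp70-1* and *hsp80* had an r of -0.0029. The libraries share strains and dates, so these values only describe this set.

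**Figure D4:**
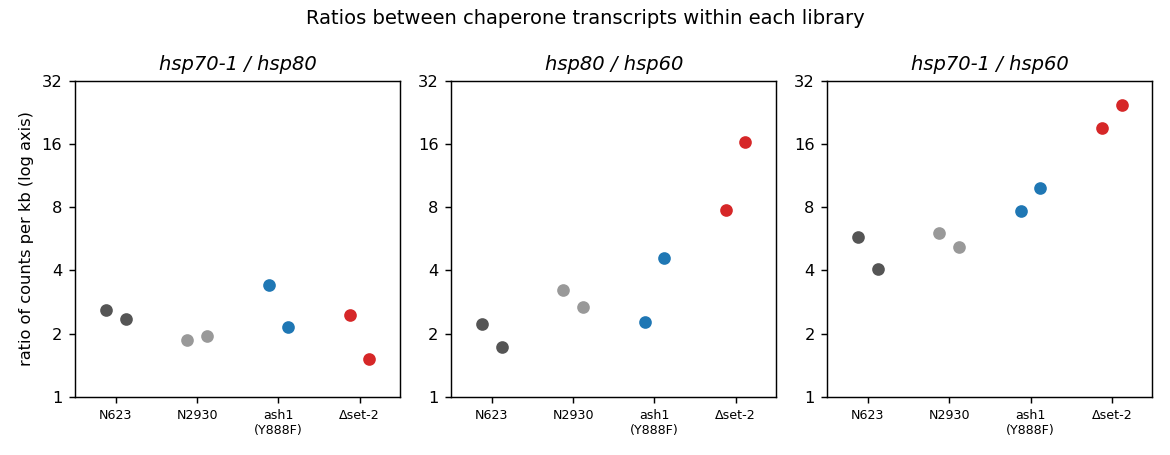
Ratios of counts per kb between chaperone genes within each library (vertical log axis, 1 point per library, replicate 1 left) in the 4 strains. The ratios to *hsp60* are highest in both Δ*set-2* libraries (7.80 and 16.3 for *hsp80*, 19.1 and 24.6 for *hsp70-1*). The ratio of *hsp70-1* to *hsp80* runs from 1.51 in Δ*set-2* replicate 2 to 3.40 in *ash1*(Y888F) replicate 1.

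The other chaperone and heat shock genes taken, those with a symbol that begins with hsp, hsf or grp in the annotation, number 9. Chaperone genes with other symbols were not searched for. In Δ*set-2* they moved both ways, with 3 higher and 3 lower against N623 and 2 higher and 5 lower against N2930, where 21.7% and 27.2% of all genes were called higher and 19.8% and 25.1% lower. Those called in the same direction against both strains were *hsp70-5*, *hsp70-2* and *hsp78*, which fell, and *hsp90a* and *hsf-1*, which rose. *hsp70-5*, of the Hsp70 family, came closest to *hsp60*. It had 7936 and 12682 counts in N623, 6197 and 9019 in N2930, 7592 and 4850 in *ash1*(Y888F), but 2459 and 2385 in Δ*set-2*. As for *hsp60*, both Δ*set-2* libraries were the lowest in CPM. Its log2 fold change was -2.19 against N623 (standard error 0.29, adjusted p = 0.00510) and -1.57 against N2930 (standard error 0.26, adjusted p = 0.00735), and *ash1*(Y888F) also had more of it than Δ*set-2* had (log2 1.56, adjusted p = 0.0427). *hsp70-2*, another Hsp70 gene, with 401 to 1546 CPM per kb over the libraries, a wider range than that of *hsp70-1*, fell against both (log2 -1.02 and -1.34, adjusted p = 0.0765 and 0.0365). *hsp78*, whose namesake in *Saccharomyces cerevisiae* is a mitochondrial disaggregase, fell as well (log2 -1.43 and -0.62, adjusted p = 0.00604 and 0.0662). Several of these calls were lost when a library was left out, among them *hsp70-2* without N623 replicate 2 (log2 -0.83) and *hsp78* without N2930 replicate 1 (log2 -0.39), while *hsp70-5* passed in each case against either WT strain. The call of *hsp70-5* between the mutants was lost without Δ*set-2* replicate 1 (log2 1.56) or 2 (log2 1.53), at nearly the same fold change. The number of all genes called also changed in such fits, so these losses are not particular to the chaperone genes.

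Between the mutants *hsf-1* was also called, lower in *ash1*(Y888F) (log2 -0.72, adjusted p = 0.0817), a call lost without *ash1*(Y888F) replicate 1 or either Δ*set-2* library (log2 -0.80 to -0.67, adjusted p = 0.119 to 0.487). That made 2 of the 9 called between the mutants, where 25.8% of all genes were. Between N2930 and N623 none of the 9 was called (3 with an unadjusted p under 0.05, none with DESeq2), where 1.78% of all genes were.

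*hsf-1*, which encodes a heat shock transcription factor, rose in Δ*set-2* from 740 and 776 counts in N623 and 697 and 751 in N2930 to 1123 and 1210 (log2 0.51 and 0.76, adjusted p = 0.0657 and 0.0179). Against N623 the call was lost without any one library (adjusted p = 0.147 to 0.245), while the log2 fold change stayed between 0.45 and 0.52. *hsf-2*, of the same family, had log2 fold changes of -0.06 against N623 (adjusted p = 0.803) and -0.45 against N2930 (adjusted p = 0.0743), a call lost without any one library (log2 -0.57 to -0.40, adjusted p = 0.124 to 0.220). *hsp90a* rose by 0.87 and 0.84 on the log2 scale (adjusted p = 0.0230 and 0.0244). This call was lost without N623 replicate 1 (log2 0.88, adjusted p = 0.106) or 2 (log2 0.85, adjusted p = 0.144) and without N2930 replicate 2 (log2 0.79, adjusted p = 0.134). *hsp98*, the Hsp104-type disaggregase gene of the cytosol, passed against N623 only (log2 0.74, adjusted p = 0.0453, and 0.48 against N2930, adjusted p = 0.114), and the call was lost without either N623 library or Δ*set-2* replicate 2 (log2 0.54 to 0.86, adjusted p = 0.107 to 0.245). *hsp88*, of the Hsp110 family, fell against N2930 only (log2 -0.78, adjusted p = 0.0387, and -0.37 against N623, adjusted p = 0.220), a call lost without N2930 replicate 2 (log2 -0.68, adjusted p = 0.166) or Δ*set-2* replicate 2 (log2 -0.70, adjusted p = 0.112). *grp78*, the BiP chaperone of the endoplasmic reticulum, had log2 fold changes of -0.32 and -0.54, neither of which passed. In *ash1*(Y888F) the single call among the 9 genes was *hsp78*, which fell against N623 (log2 -0.93, adjusted p = 0.0772) but had a log2 fold change of -0.12 against N2930 (adjusted p = 0.808). The call against N623 was lost without N623 replicate 1 (log2 -0.75, adjusted p = 0.396) or 2 (log2 -1.09, adjusted p = 0.186), without *ash1*(Y888F) replicate 1 (log2 -0.78, adjusted p = 0.102), with total counts (log2 -0.79, adjusted p = 0.206) and with both WT strains as control (log2 -0.57, adjusted p = 0.316). Among all genes 3.36% were called lower in *ash1*(Y888F) against N623. Against N2930 none of the 9 was called (1 with an unadjusted p under 0.05, 1 with DESeq2), where 19.9% of all genes were. The 9 genes had a median log2 fold change of -0.32 and -0.54 in Δ*set-2* and -0.20 and -0.12 in *ash1*(Y888F).

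**Figure D5:**
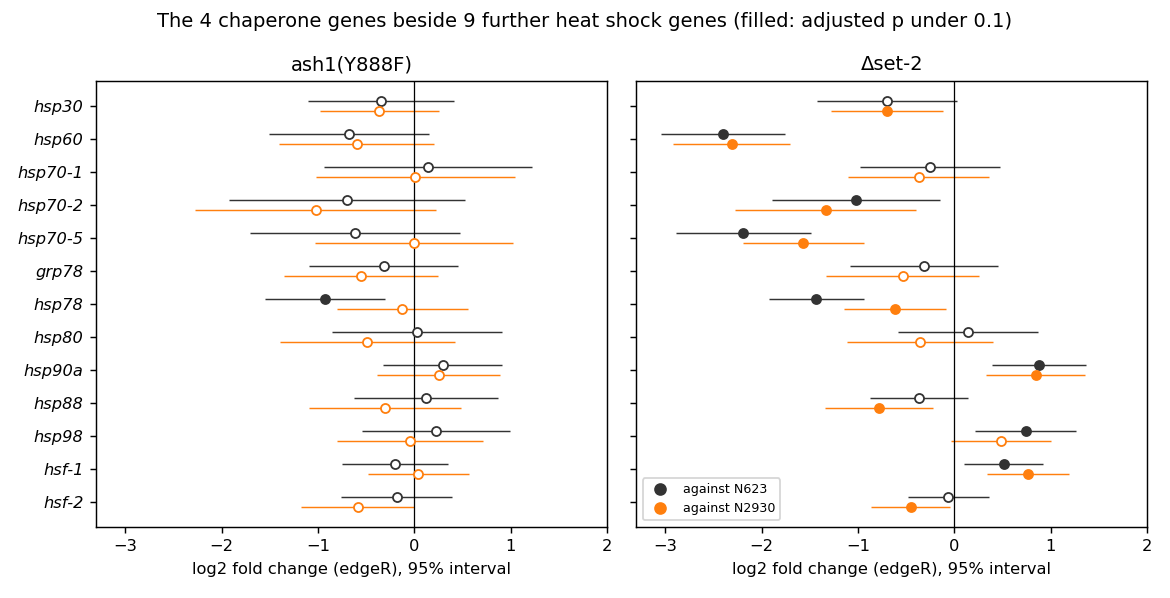
log2 fold changes with 95% intervals (horizontal axis) of the chaperone genes and 9 further heat shock genes in *ash1*(Y888F) (left) and Δ*set-2* (right), against N623 (black) and N2930 (orange). In Δ*set-2* *hsp60* and *hsp70-5* are the farthest to the left (-2.40 and -2.19 against N623), with *hsp90a*, *hsf-1* and *hsp98* on the right, and in *ash1*(Y888F) the filled point is *hsp78* against N623.

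None of the chaperone genes is in the authors' list of 1970 genes marked by ASH1-catalyzed H3K36me2 or in the list of 836 genes marked by H3K27me2/3 in WT. The distance to the nearest marked gene differed among them. *hsp70-1* lies 1.47 kb from *NCU09603*, which is in both lists, and *hsp60* lies 2.44 kb from the ASH1-marked *NCU01591*, each being the next gene on one side. For *hsp80* the nearest ASH1-marked gene, *NCU04134*, is 14.6 kb away, and for *hsp30* it is *NCU09372* at 44.9 kb. The median distance over the 7760 unmarked genes was 10.9 kb (quartiles 3.49 and 27.2). These 4 nearest marked genes were looked up after the other values were seen. *NCU09603* had 170 and 70 counts in *ash1*(Y888F) against 3 and 11 in N623, and *NCU01591* had 31 and 31 against 0 and 3. *NCU04134* had 49 and 60 against 0 and 1, and *NCU09372* had 47 and 69 against 5 and 2. Each was called higher in *ash1*(Y888F) against both WT strains, as were 1053 and 1294 of all 8125 genes tested and 58.4% and 65.1% of the ASH1-marked genes tested. A marked gene silent in WT enters the test only through its counts in the mutant, so this is no support for a change of the marked genes. The chaperone genes beside them, *hsp70-1* and *hsp60*, were not called higher in *ash1*(Y888F). *hsp30* overlaps *NCU10352* by 147 bases on the other strand, and reads were counted by strand.

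As a last description, the genes whose log2 CPM followed each chaperone gene most closely over the 8 libraries were looked up among 6471 genes with an average log2 CPM of at least 3. For *hsp60* these were *NCU02627*, *NCU04775* and *NCU04292*, with Pearson's r of 0.996, 0.99 and 0.99. The closest genes to *hsp70-1* were *NCU04195*, *NCU04087* and *NCU02038* (r = 0.98, 0.97 and 0.96). *hsp80* was followed by *NCU07414*, *NCU05213* and *NCU05296* (r = 0.95, 0.94 and 0.94), and *hsp30* by *NCU04129*, *NCU01839* and *NCU00035* (r = 0.96, 0.93 and 0.93). None of the 4 chaperone genes, nor of the 9 others named above, was among these closest genes. None of the closest genes has a symbol in the annotation. *NCU07414* was on a list of possible chaperone loci, but without a symbol it was not counted among the 9, so other chaperone genes may be among them. The values are the highest of 6471 for each gene over libraries that share strain and date, and carry no test.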

How the data were processed

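The authors prepared stranded poly-A+ libraries, filtered and trimmed single-end reads (Stacks), mapped them (TopHat2) and deposited raw counts per gene made with HTSeq. The sources used here name no tool versions. In a table without column names 1 column, named by its file, was used. Of 7 other columns of counts in it, 3 copy other libraries and 4 could not be assigned, so none was used. In the deposited lists of marked genes (ChIP-seq) the score is always 0, so only membership was read. Their tables of fold changes and p-values, and their H3K27 ratios, which hold none of the 4 genes, were not used. Rows that name no gene (4.89 to 14.8% of reads) were left out.

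Strains were compared in pairs with edgeR 4.0.16 in R 4.3.3 (quasi-likelihood test after TMM scaling, filterByExpr with its minimum of 10 counts, adjusted p under 0.1 over all genes), each with 2 libraries. Standard errors were taken from the F statistic, as the size of the log2 fold change divided by its square root. Alternatives were DESeq2 1.42.0, RLE or total-count scaling, no filter, all 4 strains in the fit, a replicate block, a threshold of 0.05, pooled WT strains and each library left out. The edgeR step was tested on simulated data, but no outcome is given here, so this is no support for the calls. Python 3.11.15, pandas 2.3.3 and matplotlib 3.10.9 were used for tables and figures.

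The 4 genes and the lists were chosen with earlier results of these data known. Genes named are the 4 chaperone genes, the 9 others whose symbol begins with hsp, hsf or grp in the RefSeq table of NC12, the 3 genes most correlated with each chaperone gene (log2 CPM with a prior count of 2), and the nearest ASH1-marked genes, added after their values were seen. The conidial genes are con-6, con-8, con-10, con-13, eas, cat-1 and fl.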

Additional observations from a re-analysis of the deposited data

How the results depend on the processing

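The fall of *hsp60* in Δ*set-2* passed the threshold against either WT strain under each alternative run. Of 272 repeated tests of the 4 genes over the 6 comparisons, 248 kept direction and call, 6 lost a call, 4 gained one and 14 changed sign, the last all for differences that were not called. Only 4 of the 24 main tests were called, so most of the 248 are differences that stayed uncalled. The threshold of 0.05 reuses the main fit, so it could change no direction and add no call. Outside the left-out libraries, *hsp30* in Δ*set-2* against N2930 missed with total counts (log2 -0.58, adjusted p = 0.108) and at a threshold of 0.05 (log2 -0.70), and against N623 passed with N623 and N2930 together as control (log2 -0.72, adjusted p = 0.0583). With that control *hsp80* changed sign in *ash1*(Y888F) (-0.24) and Δ*set-2* (-0.15). Without the low-count filter *hsp70-1* in *ash1*(Y888F) against N2930 (-0.013) and *hsp30* in N2930 against N623 (-0.00092) changed sign.

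With a library left out, the log2 fold change against N623 ran from -0.64 to 0.017 for *hsp30*, from -0.20 to 0.21 for *hsp80* and from -1.03 to -0.42 for *hsp60* in *ash1*(Y888F), and from -0.20 to 0.37 for *hsp80* in Δ*set-2*. Against N2930 it ran from -0.13 to 0.14 for *hsp70-1* and from -0.95 to -0.32 for *hsp60* in *ash1*(Y888F), and from -1.001 to -0.53 for *hsp30* in Δ*set-2*. Between the mutants it ran from -0.42 to 0.21 for *hsp80* and from 1.38 to 1.96 for *hsp60*, and between N2930 and N623 from -0.28 to 0.37 for *hsp30* and from -0.27 to 0.12 for *hsp60*.

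The number of genes called ran from 843 to 2232 (1326 with all libraries) for *ash1*(Y888F) against N623, 1062 to 2859 (1620) against N2930, 1450 to 2953 (3211) for Δ*set-2* against N623, 2232 to 3781 (4064) against N2930, 1247 to 2714 (2134) between the mutants and 80 to 242 (133) between N2930 and N623. Between N2930 and N623 it was 537 with DESeq2, 40 with all 4 strains in the fit and 5 at a threshold of 0.05. With total counts, which moved the median of all genes in Δ*set-2* against N623 by 0.17, 65.2% of its calls were higher in place of 52.2%. The cause of these changes was not tested.

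The library numbers are not stated to pair the strains. Deviations of same-numbered libraries correlated at 0.66 between N623 and N2930 and at 0.44 between the mutants, and from -0.22 to -0.08 between mutants and WT strains. With the number as a replicate block, 3358 of 8270 genes were called between the mutants. Between N2930 and N623 it was 2429 of 7464 (1126 higher and 1303 lower), and *hsp80* then passed there (log2 0.50, adjusted p = 0.0260). The block changed no other call of the 4 genes. Of the 9 other chaperone genes it called 6 between N2930 and N623 (4 higher and 2 lower), beside 2429 of all 7464 genes. Without the block none of the 9 was called, beside 133 of all 7464 genes.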
